A study of Mus musculus with 6 samples.

Results

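The genes followed here in GLUTag cells belong to the Notch pathway. They were the receptor genes Notch1, Notch2, Notch3 and Notch4, the ligand genes Dll1, Dll3, Dll4 and Jag1, and the Hes genes Hes1 and Hes6, chosen by name as 10 of the 54281 genes in the deposited table. GLUTag is a mouse cell line from an endocrine tumour of the large bowel, which arose in mice with a viral large T antigen under the proglucagon promoter, and it is used as a model of the intestinal L-cell, which secretes glucagon-like peptide 1. PolyA RNA was sequenced from its 3′ ends (QuantSeq 3′ mRNA-Seq FWD). There were 6 libraries, of which 3 were from plate 1 (passage 23) and the other 3 from plate 2 (passage 27). All of them came from cultures of the line with no treatment named, grown for 48 h in DMEM with 1 g/L glucose and 10% heat-inactivated FBS on Matrigel, and the design holds no treated group and no normal tissue. Plate and passage changed together and cannot be told apart. Wells of a plate share a culture, so p-values over these libraries may measure mainly technical spread.

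Levels are given as CPM, each gene's count divided by the library's total and multiplied by 1000000. These libraries take reads from the 3′ end of a transcript, so a count stands for a transcript end and is not scaled by gene length, and levels of different genes were compared on that scale. Totals ran from 21399987 to 36488198 counts per library. A count of 3, taken as the limit of detection, corresponded to 0.0822 to 0.14 CPM. That limit covers counting error only.

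Notch receptors are cell surface proteins that are switched on by ligands on a neighbouring cell. The bound receptor is cut by ADAM proteases and then by gamma-secretase, and its freed intracellular part enters the nucleus, joins the DNA-binding protein RBPJ and a Mastermind protein, and turns on genes of the Hes and Hey families, which encode repressors. In the intestine, Notch activity keeps crypt cells undifferentiated or absorptive, in large part because HES1 represses the proneural factor gene Atoh1, while cells that become secretory carry Delta-like ligands.

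The cells carried the markers of their label. All 9 enteroendocrine markers were above 3 counts in every library, from Gcg, which encodes proglucagon, at a mean of 3416 CPM to Scg2, a secretory granule protein gene, at 81.2 CPM. Markers of other cell types were examined because Notch genes are also used by blood vessels, crypt stem cells and other epithelial cells. The endothelial list held a single abundant gene, Pecam1, at a mean of 43.0 CPM, and 2 of its 5 genes, Tie1 and Tek, had no count in any library. Lowest and highest means in the remaining lists were 0 for Fabp2 and 0.659 CPM for Alpi among 6 enterocyte genes, 0 for Mmp7 and 37.8 CPM for Tff3 among 6 goblet or Paneth genes, and 0 for Ascl2 and 3.19 CPM for Lgr5 among 4 stem cell genes. They were 0.0078 CPM for Pou2f3 and 67.2 CPM for Dclk1 among 4 tuft cell genes, 0.0183 CPM for Pdgfra and 5.87 CPM for Col1a2 among 4 fibroblast genes, and 0.0274 CPM for Cd3e and 0.633 CPM for Cd68 among 4 immune genes. Columns of plate 2 could not be matched to replicate numbers and are named by depth, as the low-depth, mid-depth and high-depth libraries for their lowest, middle and highest totals. The mid-depth library stood apart from the rest. Of 13516 genes whose mean was 1 CPM or more, 1234 were over 2-fold lower there than the mean of both other libraries of its plate, against 74 to 287 genes in each of the 5 remaining libraries compared in the same way.

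Hes6, the most abundant of the 10 genes, lies at chr1:91411483-91414038 on the minus strand (GRCm38, GENCODE M21). Its upstream sequence is shown because it is the gene whose level leads the set. The window, as given by RefSeq, covers the 250 bases before the start site shared by 2 of its 5 annotated transcripts. It is chr1:91413223-91413472 on the minus strand of GRCm38.p6 and lies within the annotated span of the gene. Capitals mark the E-box CANNTG, the core bound by many basic helix-loop-helix proteins, among them the proneural factors. Other sites bound by proteins of this family, which includes the Hes factors, were not searched.
Hes6: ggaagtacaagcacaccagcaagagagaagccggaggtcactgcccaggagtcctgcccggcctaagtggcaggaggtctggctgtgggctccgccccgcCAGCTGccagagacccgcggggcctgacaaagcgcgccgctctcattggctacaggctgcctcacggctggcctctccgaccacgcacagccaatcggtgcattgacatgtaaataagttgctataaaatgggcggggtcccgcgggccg
The window held 1 E-box, 17 CpG dinucleotides and a GC content of 64%. Of the 32851 promoter windows of the same length, 66.2% held at least 1 E-box, and the median GC content was 52.4%. Of the 10 genes, 9 had an entry, with 11 windows in all, of which 7 held an E-box. The gene without an entry was Hes1, so its upstream sequence was not searched. Windows of Dll1, Dll3, Jag1, Notch3 and Notch4 precede a start site that no GENCODE M21 transcript has. The letters TGGGAA, the core bound by RBPJ, were searched on both strands and were in 0 of the 11 windows and in 21.6% of all windows. A match or its absence describes these letters in this window only.

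Ordered by mean CPM over the 6 libraries, the genes ran Hes6, Dll3, Notch2, Dll1, Hes1, Notch1, Notch4, Dll4, Notch3 and Jag1. Of these, 6 were above 3 counts in every library, namely Hes6, Dll3, Notch2, Dll1, Hes1 and Notch1. The mean of Hes6 was above those of 86.3% of the 27044 genes detected in at least 1 library, that of Notch1 above 52.0% and that of Jag1 above 12.6%. Each of the 45 pairs of genes was compared within libraries as the difference of log2(CPM + 1), by flipping the signs of the 6 library differences in every possible way (an exact permutation test, two-sided), with Benjamini-Hochberg adjustment over the 45 pairs. In 39 pairs the higher gene was higher in 6 of 6 libraries, which gives the smallest p this design allows (exact permutation p = 0.031, adjusted p = 0.03606). Among the 9 pairs of neighbours in the order, 4 passed, and these were Hes6 over Dll3, Dll3 over Notch2, Hes1 over Notch1 and Dll4 over Notch3.

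**Figure D1:**
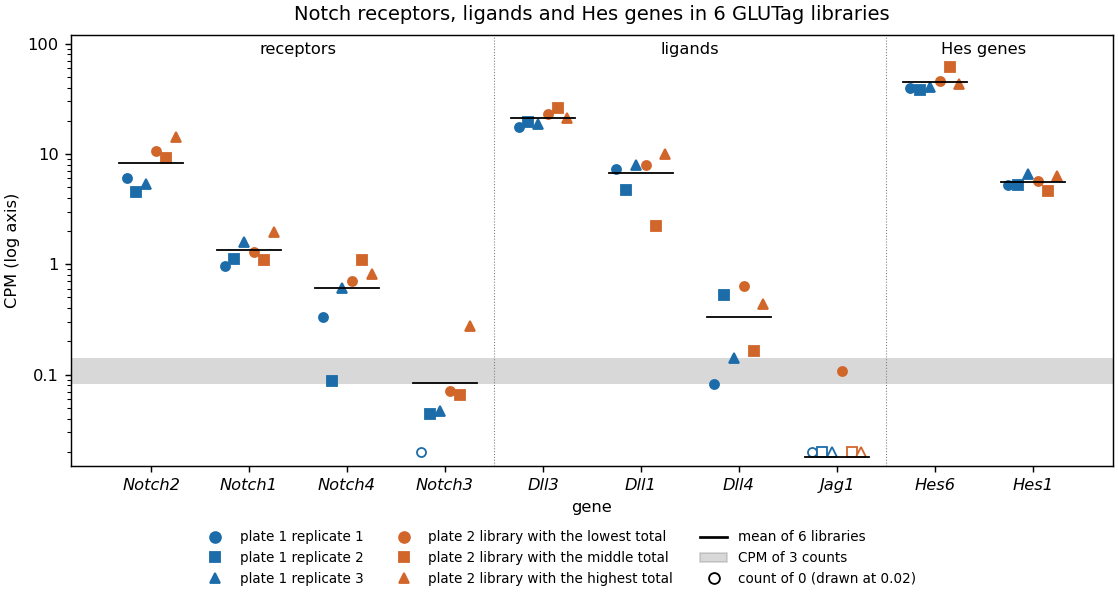
CPM on a log axis for each of the 10 genes in each of the 6 libraries, grouped by role, with the 3 plate 1 libraries in blue and the 3 plate 2 libraries in orange. Black lines are means of the 6 libraries, the grey band is the CPM of 3 counts, and open points are counts of 0, drawn at 0.02. Hes6 and Dll3 lie above every other gene in all 6 libraries, and Jag1 has counts in 1 library.

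Notch2 was the main receptor transcript and Notch1 the only other receptor above 3 counts in every library. Notch2 (chr3:98013527-98150361, plus strand) encodes a receptor that acts together with NOTCH1 in intestinal crypts. It was at 6.09, 4.55 and 5.33 CPM in plate 1 replicates 1, 2 and 3, and at 10.7, 9.12 and 14.3 CPM in the plate 2 libraries of lowest, middle and highest depth. Every plate 2 library was above every plate 1 library, a pattern set beside that of all genes in the comparison of plates below. Notch1 (chr2:26457903-26516663, minus strand) was at 0.959, 1.1 and 1.59 CPM in plate 1 and at 1.28, 1.1 and 1.97 CPM in plate 2, in the same order of libraries, so the plates overlapped. Notch2 exceeded Notch1 by 1.92 ± 0.487 (SD, n = 6) on the log2(CPM + 1) scale (exact permutation p = 0.031, adjusted p = 0.03606), and the ratio of their CPM values ran from 3.35 to 8.33.

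The other receptor genes had fewer counts, and Notch3 was near the limit of detection. Notch4 (chr17:34564268-34588503, plus strand), best known from blood vessel endothelium, had 8, 2 and 13 counts in plate 1 and 20, 34 and 30 counts in plate 2, or a mean of 0.611 ± 0.359 CPM (SD, n = 6). Notch4 was at most level with Notch1 in any library, and was lower in 5 of 6 (difference of 0.552 ± 0.324 on the log2(CPM + 1) scale, exact permutation p = 0.0625, adjusted p = 0.07031). Notch3 (chr17:32120820-32166852, minus strand), best known from the smooth muscle of arteries, had 0, 1 and 1 counts in plate 1 and 2, 2 and 10 counts in plate 2. It passed 3 counts in 1 library only, the high-depth library. Several of these genes overlap others in the annotation, Notch1 with Mir6996 and Notch2 with Gm42819 and Gm42820 on the same strand, so reads from shared sequence could have been split between them.

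Among the ligands, Dll3 was the most abundant of the 4 followed, and Jag1 was at or below the limit of detection. DLL3 (chr7:28293553-28302238, minus strand) is a divergent Delta-like ligand that stays largely inside the cell and dampens Notch in the cell that makes it rather than activating it in a neighbour. Dll3 was at 17.4, 19.5 and 18.7 CPM in plate 1 and at 23.2, 26.1 and 21.3 CPM in plate 2. It varied little, with a coefficient of variation of 15.3%. Dll1 (chr17:15367354-15376872, minus strand), which encodes an activating ligand of secretory cells and their precursors in the crypt, was at 7.25, 4.73 and 7.90 CPM in plate 1 and at 7.98, 2.23 and 10.1 CPM in plate 2. Its lowest value, 2.23 CPM, was in the mid-depth library. Dll3 exceeded Dll1 by 1.61 ± 0.774 (SD, n = 6) on the log2(CPM + 1) scale (exact permutation p = 0.031, adjusted p = 0.03606). The ratio of their CPM values was 2.11 to 4.13 in 5 libraries and 11.7 in the mid-depth library.

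Dll4 (chr2:119325784-119335962, plus strand) encodes the other activating Delta-like ligand, used in crypts and in sprouting vessels. It had 2, 12 and 3 counts in plate 1 and 18, 5 and 16 counts in plate 2, a mean of 0.333 ± 0.234 CPM (SD, n = 6). Its level was higher than that of Notch3 in 6 of 6 libraries (0.284 ± 0.233 on the log2(CPM + 1) scale, exact permutation p = 0.031, adjusted p = 0.03606), a small difference between genes with few counts. Jag1 (chr2:137081456-137116644, minus strand), which encodes an activating ligand of the Jagged kind, had 3 counts in the low-depth library and 0 in the other 5. A count of 0 in those 5 libraries allows a level of up to 0.0822 to 0.14 CPM.

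The 2 Hes genes lay far apart. Hes6 encodes a family member that binds HES1 and relieves its repression, and it promotes neuronal differentiation. It was at 39.4, 38.0 and 40.8 CPM in plate 1 and at 46.1, 61.7 and 43.1 CPM in plate 2. The mid-depth library was the highest, and the other 5 lay between 38.0 and 46.1 CPM. Hes1 (chr16:30064384-30067796, plus strand), the main Notch target and repressor in the crypt, was at 5.25, 5.26 and 6.64 CPM in plate 1 and at 5.66, 4.63 and 6.28 CPM in plate 2. In CPM by library totals, Hes1 had the lowest coefficient of variation of the 10 genes, 13.1%. That ranking was not made under another scaling, and after TMM scaling the plates did not overlap for Hes1, as given below. Hes6 exceeded Hes1 by 2.78 ± 0.362 (SD, n = 6) on the log2(CPM + 1) scale (exact permutation p = 0.031, adjusted p = 0.03606), and the ratio of their CPM values ran from 6.15 to 13.3, the mid-depth library being the highest.

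Across roles, the steadiest difference was that of Hes6 and Dll3. Hes6 exceeded Dll3 by 1.05 on the log2(CPM + 1) scale with an SD of 0.111, the smallest SD among the 45 pairs, and the mean difference was 1.05 in either plate. Dll3 exceeded Notch2 by 1.32 ± 0.472 (SD, n = 6), with a mean of 1.63 in plate 1 and 1.00 in plate 2. Notch2, Dll1 and Hes1 had neighbouring means of 8.35, 6.70 and 5.62 CPM. Within it, Notch2 exceeded Dll1 in 3 of 6 libraries by a mean of 0.290 ± 0.757 (exact permutation p = 0.5, adjusted p = 0.51136). Notch2 exceeded Hes1 in 4 of 6 by 0.412 ± 0.575 (exact permutation p = 0.1875, adjusted p = 0.20089), and the mean difference was -0.09 in plate 1 and 0.91 in plate 2. Dll1 exceeded Hes1 in 4 of 6 by 0.122 ± 0.516 (exact permutation p = 0.5625, adjusted p = 0.5625). The remaining pairs that did not pass were those of Notch4 with Dll4 (0.260 ± 0.452, higher in 5 of 6, exact permutation p = 0.21875, adjusted p = 0.22892) and of Notch3 with Jag1 (0.087 ± 0.138, higher in 4 of 6, exact permutation p = 0.125, adjusted p = 0.1372), beside the pair of Notch1 and Notch4 above.

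The rest of the pathway was examined through 64 further genes in lists by role. Dner, which encodes a ligand best known from neurons, was the highest of 4 other ligand genes at 32.2 CPM, followed by Jag2, an activating ligand of the Jagged kind, at 28.8 CPM. Jag2 was at 1.1 to 1.75 times the CPM of Dll3 over the 6 libraries, and so was the Jagged gene with counts in all of them, while Jag1 had none in 5. Dlk1, which encodes a ligand-like protein without the receptor-binding domain of the Delta family, was the lowest at 0.0091 CPM. Of the 5 genes for enzymes that add sugars to the receptors, Poglut1 was the highest at 33.5 CPM and Rfng, a Fringe gene, followed at 21.1 CPM. Lfng, the Fringe gene best known from somite formation, was the lowest at 2.02 CPM.

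The machinery that cuts the receptor was well represented. Furin, which encodes the protease that cuts the receptor on its way to the surface, had a mean of 174.4 CPM, and Psenen, a gamma-secretase subunit gene, had 123.5 CPM. The lowest of these 10 genes was Aph1c, for an alternative subunit, at 0.583 CPM. Among 8 genes for nuclear activation, Snw1, for a coactivator and splicing protein, was the highest at 153.9 CPM, Ep300, for a histone acetyltransferase, followed at 60.0 CPM, and the Mastermind gene Maml2 was the lowest at 0.111 CPM. Rbpj, which encodes the DNA-binding partner of all 4 receptors, was at 35.3 ± 3.82 CPM (SD, n = 6). Of 11 corepression genes, Ncor1 had 258.1 CPM and Hdac1, a histone deacetylase gene, 172.1 CPM, and Tle2, a Groucho-family gene, was the lowest at 1.63 CPM. Of 12 genes for endocytosis and turnover, the ubiquitin ligase genes Neurl1b and Fbxw7 were the highest at 89.4 and 64.9 CPM, and Dtx4, a Deltex-family gene, was the lowest at 6.08 CPM.

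The list of other targets held further Hes genes, the Hey genes and Nrarp, chosen by name, and their response to Notch was not tested. It was led by Nrarp, a feedback inhibitor that binds the nuclear complex, at 23.8 CPM. Nrarp was 3.01 to 4.87 times as high as Hes1 in CPM. Hes7, best known as a clock gene of the somites, followed at 6.94 CPM, and Hes3 was the lowest of these 8 genes at 0.0256 CPM. Among the proneural genes, which encode factors that Hes proteins repress, Neurog1 and Neurog3 had no count in any library. Atoh1 had 3 counts in plate 1 replicate 1 and 0 elsewhere. Neurod1, which acts late in enteroendocrine differentiation, was the highest of that list at 617.4 CPM, and Neurog2 followed at 0.272 CPM.

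**Figure D2:**
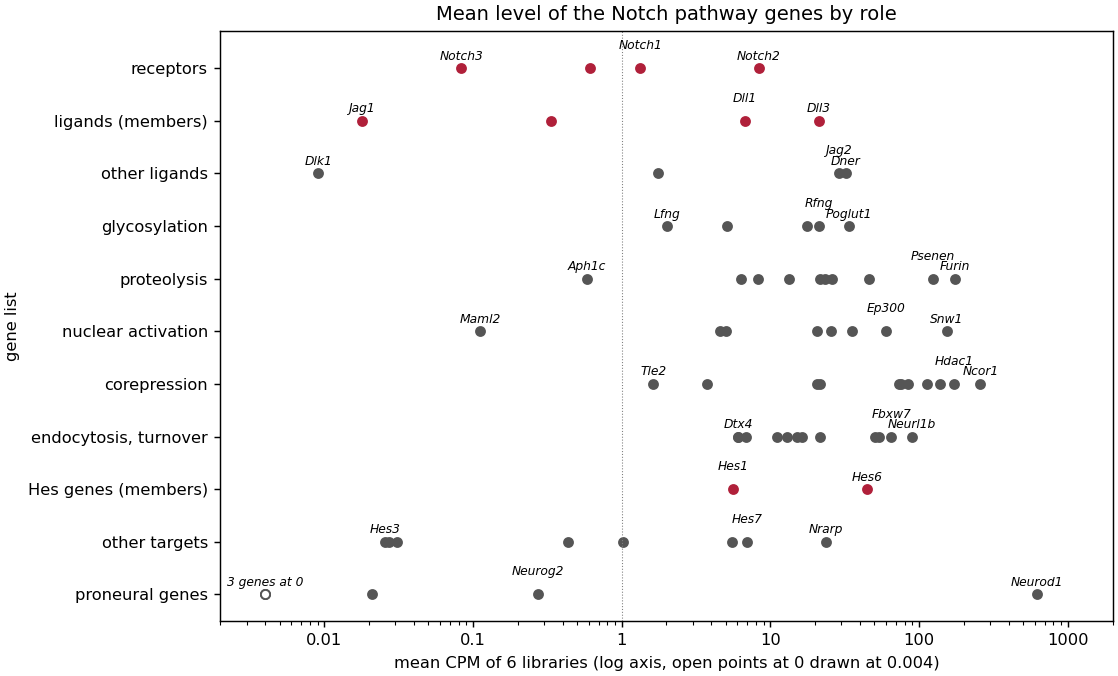
Mean CPM of the 6 libraries on a log axis for the 10 genes (red) and the 64 other pathway genes (grey), 1 row per role, with names on the highest 2 and the lowest gene of each row. Open points are genes with no count in any library, drawn at 0.004, and the dotted line is 1 CPM. Each receptor mean is below 10 CPM, while Furin, Psenen, Snw1, Ncor1 and Hdac1 are above 100 CPM.

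The only contrast in the labels is that of plate 2, passage 27, with plate 1, passage 23. It was fitted across the whole table with edgeR's quasi-likelihood test, TMM scaling and Benjamini-Hochberg adjustment over 15669 genes. At an adjusted p under 0.05 it called 29 genes, 0.185% of those tested, 2 higher and 27 lower in plate 2, and 2520 genes had an unadjusted p under 0.05. None of the 10 genes was called. Of these 10, 8 passed the filter on low counts and were tested, 0 were called, and 1 had an unadjusted p under 0.05. DESeq2, which called 584 of the 15669 genes (3.73%), called 1 of the 8, and that gene was Notch2. The median log2 fold change was 0.08 over these 8 genes and 0.03 over all genes.

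Notch2 had a log2 fold change of 0.83 (standard error 0.21, edgeR adjusted p = 0.13), from 5.32 ± 0.767 CPM in plate 1 to 11.4 ± 2.67 CPM in plate 2 (SD, n = 3 each). Its call depended on the setting. DESeq2 gave 0.81 (adjusted p = 0.0347), edgeR without a filter on low counts 0.85 (adjusted p = 0.0214), edgeR on library totals without TMM 1.1 (adjusted p = 0.0309), and edgeR without the mid-depth library 0.93 (adjusted p = 0.00606). The last 3 of these settings called 2.02%, 9.32% and 12.0% of all genes they tested. Notch2 was not called by limma-voom (adjusted p = 0.156). Nor was it called by edgeR with at least 10 counts in every library (adjusted p = 0.111) or with DESeq2 size factors (adjusted p = 0.132). Leaving out any library but the mid-depth one gave no call either (edgeR adjusted p = 0.236 to 0.416). Over all alternatives the adjusted p ranged from 0.00606 to 0.416, and the log2 fold change stayed positive. After TMM scaling, Notch2 was the only tested gene of the set in which all plate 2 libraries were above all plate 1 libraries, a pattern that 12.8% of all tested genes had.

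Hes1 was the only one of the 8 with all plate 2 libraries below all plate 1 libraries after TMM scaling, a pattern of 12.0% of tested genes, and its log2 fold change was -0.31 (standard error 0.20, edgeR adjusted p = 0.49). Notch4 had the widest difference in size, 1.1, with a standard error of 0.61 (edgeR adjusted p = 0.423). Dll4 was at 0.43 with a standard error of 0.81. The log2 fold changes of Hes6 (0.09, standard error 0.16), Dll3 (0.08, standard error 0.14), Notch1 (0.00, standard error 0.37) and Dll1 (-0.24, standard error 0.51) were smaller than their standard errors. Scaling bears on these signs. With library totals in place of TMM the median over all genes rose from 0.03 to 0.30, and the calls became 1390 higher and 71 lower. In unscaled CPM the plates did not overlap for Hes6, Dll3 and Notch4, with plate 2 higher, whereas after TMM scaling they did. The share of all genes without overlap was counted after TMM scaling only, so the pattern in unscaled CPM is no result about these genes. Notch3 and Jag1 did not pass the filter on low counts. Without that filter, edgeR gave an adjusted p of 0.708 for Notch3, whose plate 2 values were all above those of plate 1, and of 0.696 for Jag1, which had counts in 1 library only.

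Among the endothelial markers only Pecam1 was abundant, and it set the range of the list in each plate. The summed level was 39.6 to 99.9 CPM in plate 1 and 3.60 to 32.7 CPM in plate 2, almost all of it Pecam1. Tie1 and Tek had no count, Cdh5 at most 3 counts and Kdr at most 6 in any library. The lowest sum was in the mid-depth library, with Pecam1 at 3.41 CPM against a mean of 28.2 CPM in the rest of plate 2. After TMM scaling all plate 2 values of Pecam1 were below those of plate 1, a pattern of 12.0% of tested genes. Pecam1 was at -2.0, plate 2 over plate 1, on the log2 scale (standard error 0.86, edgeR adjusted p = 0.349), whereas Notch4 and Dll4 had positive values. Its part in the levels of Notch4 and Dll4 was not tested.

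**Figure D3:**
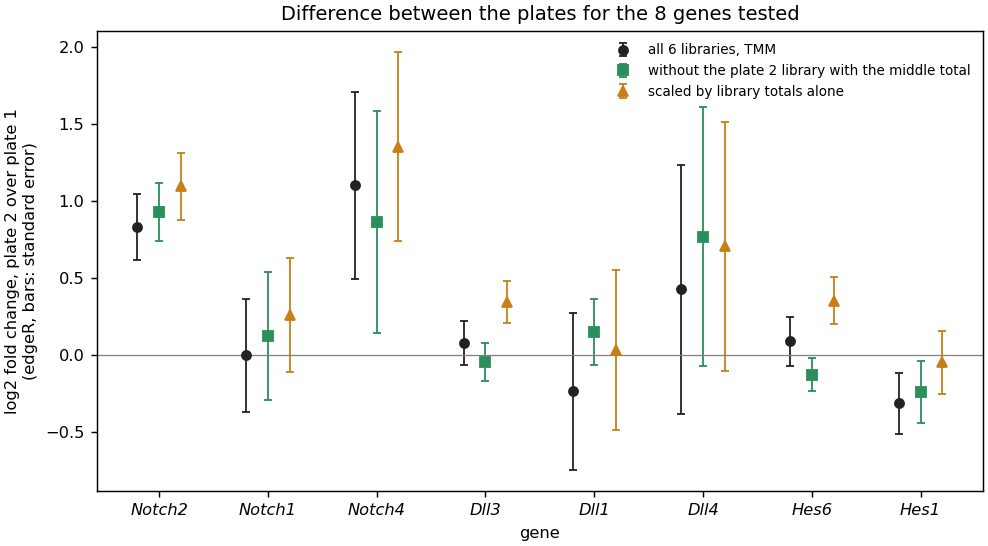
Log2 fold change of plate 2 over plate 1 with its standard error (bars) for the 8 genes tested, from edgeR on all 6 libraries with TMM (circles), without the mid-depth library (squares) and with library totals in place of TMM (triangles). Notch2 lies at 0.83, 0.93 and 1.1, and the signs of Dll3 and Hes6 turn negative without that library.

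The 64 other pathway genes were examined in the same fit. Of these, 54 were tested and 0 were called. An unadjusted p under 0.05 (edgeR) was found for 11 of the 54, against 2520 of all 15669 genes. DESeq2 called 3, Furin, Itch and Dner, against its 3.73% of all genes. Their median log2 fold change was -0.01. The smallest adjusted p was that of Itch, a ubiquitin ligase gene, at 0.0912 with a log2 fold change of -0.74 (edgeR). Furin was at -0.97 (edgeR adjusted p = 0.115), from 215.9 CPM in plate 1 to 132.8 CPM in plate 2. After TMM scaling the plates did not overlap for 6 genes that were higher in plate 2, against 12.8% of all genes, and for 12 that were lower, against 12.0%.

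Without the mid-depth library, edgeR called 11 of the 54, 4 higher and 7 lower in plate 2, against 1911 of 15894 genes in all (12.0%). The higher ones were Adam10, the protease gene for the ligand-induced cut, at 0.70 (adjusted p = 0.00441), Kat2b, an acetyltransferase gene, at 1.04 (adjusted p = 0.0112), Mib1, the ubiquitin ligase gene for ligand endocytosis, at 0.60 (adjusted p = 0.0191), and Dner at 0.44 (adjusted p = 0.0289). The lower ones were Furin, Itch, Aph1a, Hdac1, Kat2a, Numbl and Ctbp2, from -0.77 for Furin (adjusted p = 0.000152) to -0.36 for Hdac1 and Ctbp2. Notch2 was also called higher in that fit, as given above.

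In the library that stood apart, the 10 genes lay on both sides of the rest of plate 2. Of the 6 whose mean was 1 CPM or more, 1 was over 2-fold lower in the mid-depth library than the mean of the rest of plate 2, against 9.13% of all 13516 genes. It was Dll1, 4.05-fold lower, at 2.23 against 9.03 CPM. Notch1, Notch2 and Hes1 were 1.48-fold, 1.37-fold and 1.29-fold lower. Dll3 and Hes6 were higher there, at 26.1 against 22.3 CPM and 61.7 against 44.6 CPM. Among the 52 other pathway genes at this level, 5 were over 2-fold lower. These were Numb, an endocytic inhibitor of Notch (5.43-fold), Maml1, a Mastermind gene (4.25-fold), Kat2b (3.55-fold), Ncstn, a gamma-secretase subunit gene (3.45-fold), and Mib1 (2.06-fold). None of the pathway genes was over 2-fold higher, against 68 of all 13516 genes, so few that none is no result about the pathway.

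**Figure D4:**
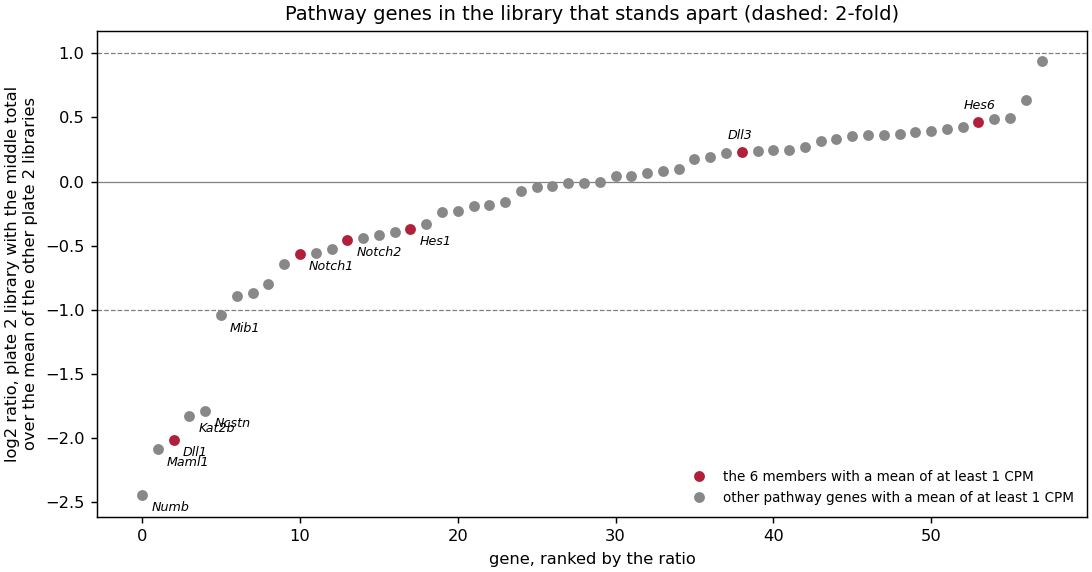
Log2 ratio of the CPM in the mid-depth library to the mean of the rest of plate 2, for the 6 genes of the set whose mean was 1 CPM or more (red) and 52 other pathway genes (grey), ranked by the ratio. Dashed lines mark 2-fold. Dll1 lies below the lower line with Numb, Maml1, Kat2b, Ncstn and Mib1, while Hes6 and Dll3 lie above 0.

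The genes most like the leading gene of each role were taken as those with the highest Pearson r over the 6 libraries, on log2 of TMM-scaled CPM plus 1, among genes whose mean was 10 CPM or more. For Notch2 they were Stim1, which encodes a calcium sensor of the endoplasmic reticulum (r = 0.9952), Slbp, which encodes a histone mRNA-binding protein (0.9928), and Acad9, a mitochondrial dehydrogenase gene (0.9906), of 8637 genes compared. For Dll3 they were Cdk19, a Mediator kinase gene (0.9881), Riok1 (0.9875) and Lhpp (0.9861). For Hes6 they were Tmem176b (0.9961), Prpsap1 (0.9946) and Ctsd, which encodes the lysosomal protease cathepsin D (0.9945), of 8636 genes each. With 6 points from 2 plates, which share their culture and include the library that stood apart, these values describe likeness only.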

How the data were processed

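The authors trimmed reads with Trim Galore 0.6.4, quantified them with Salmon 1.5.1 against GRCm38 without length correction, as fits 3′ libraries, and summarised transcripts to genes with Tximeta. The values the authors deposited are expected counts per gene, of which 7.1 to 8.9% per library were not whole, and they were rounded for the count tests. Totals were 21399987 to 36488198 counts, so a count of 3 was 0.0822 to 0.14 CPM. CPM and log2(CPM + 1) were computed from the unrounded counts. Differences within libraries were tested by an exact permutation test that flips signs, two-sided (Python 3.11.15, scipy 1.17.1). Plates were compared on all genes with edgeR 4.0.16 in R 4.3.3 (TMM, filterByExpr, robust quasi-likelihood), with DESeq2 1.42.0 and limma 3.58.1 (voom) as alternatives, beside other filters and scalings and leaving out each library in turn. The edgeR step was tested on simulated data with known large changes. In those data no library stood apart, so the test checks the code and not the calls made here. Positions are from GENCODE M21 (the study used M23), which held 54107 of the 54281 identifiers, and upstream sequences are from RefSeq.

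The 10 genes, the pathway lists and the marker lists were chosen with earlier results of these data known. All 10 genes are named, and of each other list the 2 highest genes and the lowest by mean CPM, with the lowest and highest gene of each marker list, any gene called between plates, and 3 genes most like the leading receptor, ligand and Hes gene. Atoh1, Rbpj, Itch, Adam10, genes called under an alternative, genes that were over 2-fold lower in a library and markers beyond those were named after their values were seen. The plate 2 columns carried the plate and passage but no replicate number of the labels, so they entered as libraries of plate 2. Reads from overlapping or near-identical genes could be split by the estimation of counts. The result of 1 listed gene is not reported here.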

Additional observations from a re-analysis of the deposited data

Results flagged for a closer look

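Of the 61 genes of the set and the other pathway lists with a mean of at least 10 counts, 7 had 1 library far from the other 5, by a gap whose share of the whole range passed Dixon's critical value. Chance gives this in about 1 of 20 groups of values drawn alike, whereas these 6 libraries come from 2 plates. The same count was not made over all genes, so 7 of 61 shows nothing particular to these genes. Hes6 was at 61.72 CPM in the mid-depth library of plate 2 and at 38.04 to 46.15 CPM in the others, and its mean was 44.87 CPM with that library and 41.51 CPM without it. The same library was the highest for Lfng, a Fringe gene, at 3.72 CPM. It was the lowest for the corepressor genes Hdac1 and Tle3, at 146.77 and 14.98 CPM, and for Nrarp, the feedback inhibitor, at 13.91 CPM against 24.43 to 27.71 CPM elsewhere. In the high-depth library of plate 2, Dlk2, a Delta-like homologue, was the lowest at 1.04 CPM and Hes7 at 5.48 CPM. In 5 of the 7 the library far from the others was thus the mid-depth library, and its part in these values was not tested beyond leaving it out.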

How the results depend on the processing

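Under the 3 other scalings (TMM, DESeq2 size factors, totals without mitochondrial genes) all 30 mean CPM values of the 10 genes stayed within 1 SD of those reported. Means of each plate alone differed, as for Notch2 (5.32 and 11.4 CPM) and Notch4 (0.343 and 0.878 CPM), and the mean of Notch3 went from 0.0835 to 0.045 CPM without the high-depth library of plate 2. The neighbour pairs kept their direction and side of the threshold with a smaller or larger pseudocount and with TMM, and leaving out a library gave values only, since the exact test cannot pass the threshold with 5 libraries. Between plates, 29 genes were called by edgeR, 30 by limma-voom, 29 with at least 10 counts in every library and 34 with DESeq2 size factors within edgeR. In none of these fits was any of the 10 genes or of the other pathway genes called. The calls were 584 by DESeq2, 545 without a filter on low counts and 1461 with library totals. They were 0 to 1911 when each library was left out, with 1911 without the mid-depth library of plate 2 and 0 without plate 1 replicate 1 or without the low-depth library. Without plate 1 replicate 2, plate 1 replicate 3 or the high-depth library the counts were 2, 6 and 9. Of the 10 genes, 0 were called, against 1 (Notch2) by DESeq2, without a filter and with library totals, and 0 to 1 when each library was left out. Of the other pathway genes, 0 were called, against 3, 4 and 5 in those settings and 0 to 11 when each library was left out. The cause was not tested. Signs turned for 5 of the 8 genes, none of them called in any setting. Notch1 was at 0.00 with limma-voom, 0.01 without a filter or with at least 10 counts in every library and 0.26 with library totals, and at -0.29 to 0.21 when each library was left out. Dll1 was at 0.03 with library totals and at -0.65 to 0.15 when each library was left out, Dll3 at -0.05 to 0.15, Dll4 at -0.00 to 1.61 and Hes6 at -0.13 to 0.19. The value of Dll4 was 0.43 with all libraries and turned to -0.00 without plate 1 replicate 1. The negative values of Dll3 and Hes6 and the positive value of 0.15 for Dll1, which was at -0.24 with all libraries, came without the mid-depth library. No paired analysis was possible because replicate numbers in the labels run on from plate 1 to plate 2 and none is shared. Notch3 and Jag1 were fitted only without a filter on low counts, and their few counts limit any comparison.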
